A study of Mus musculus with 6 samples.

Results

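Small nucleolar RNAs (snoRNAs) and small Cajal body RNAs (scaRNAs) were followed in Ocy454 cells, a mouse osteocytic line, as the genes whose symbol starts with Snord, Snora or Scarna. The rule, which uses the symbol and no measured value, selected 123 of the 39179 listed genes: 76 Snord genes of the box C/D class, 38 Snora genes of the box H/ACA class and 9 Scarna genes. Confluent cells were moved to 37 °C for 14 days and then received, for 4 h, vehicle (per the labels, phosphate-buffered saline with hydrochloric acid), 1 nM PTH 1-34, the active fragment of parathyroid hormone, or 0.5 µM YKL-05-093, a small-molecule inhibitor of salt-inducible kinases. There were 2 libraries per condition, referred to here as replicate 1 and replicate 2, and all came from a single-cell subclone of the line. Total RNA was taken from silica columns, its ribosomal RNA was removed, and strand-specific libraries were prepared from the rest. The sequencing was done to set the genes that PTH regulates beside those that the inhibitor regulates. The labels do not say whether the replicates were separate cultures, so the p-values below measure only the spread between these libraries, which may be technical.

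Box C/D RNAs carry fibrillarin to a target base and guide the methylation of its ribose, whereas box H/ACA RNAs carry dyskerin and guide the conversion of uridine to pseudouridine. Their targets lie mainly in ribosomal RNA. The scaRNAs use the same boxes but stay in Cajal bodies, where they guide the modification of spliceosomal RNAs. In mammals most of these RNAs are cut out of the introns of host genes, many of which encode ribosomal proteins and translation factors, and only a few have promoters of their own. They are also short, and columns and bead clean-up steps retain short RNAs and short cDNAs unevenly.

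The sequences of 5 RNAs that passed the test in 1 of the comparisons are shown with that of the abundant and much longer Snord17, so that their class and length can be compared. They were read from GRCm38 (mm10) at the annotated gene. Capitals mark the C box (TGATGA within the first 25 bases) and the D box (CTGA within the last 15 bases) of the box C/D RNAs, where these letters were found. All were searched on the strand of the gene alone.
Snord49b, chr11:62603079-62603150, plus strand: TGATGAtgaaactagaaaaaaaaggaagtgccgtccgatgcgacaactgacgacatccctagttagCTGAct
Snord35a, chr7:45126346-45126435, minus strand: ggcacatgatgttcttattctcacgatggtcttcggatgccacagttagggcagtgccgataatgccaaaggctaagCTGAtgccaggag
Snord100, chr10:23785750-23785823, minus strand: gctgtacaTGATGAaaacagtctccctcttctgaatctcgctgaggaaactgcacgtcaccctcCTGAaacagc
Snord11, chr1:59704790-59704873, plus strand: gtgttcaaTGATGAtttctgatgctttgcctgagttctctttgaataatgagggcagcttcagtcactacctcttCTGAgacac
Snora28, chr12:111540941-111541067, plus strand: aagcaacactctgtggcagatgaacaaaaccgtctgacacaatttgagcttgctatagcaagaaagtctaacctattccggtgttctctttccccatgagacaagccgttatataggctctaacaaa
Snord17, chr2:144265979-144266216, minus strand: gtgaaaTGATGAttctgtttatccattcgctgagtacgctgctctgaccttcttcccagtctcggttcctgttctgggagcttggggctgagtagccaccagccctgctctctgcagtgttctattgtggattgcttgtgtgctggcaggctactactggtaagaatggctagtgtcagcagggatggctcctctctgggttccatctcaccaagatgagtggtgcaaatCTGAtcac

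The box letters followed the class names. The C box was found in 49 of the 76 Snord genes and the D box in 70, against 0.273% and 4.81% of 4034 annotated miRNA, snRNA and misc_RNA genes of 60 to 466 bases. An ACA placed 3 bases from the 3′ end was found in 31 of the 38 Snora genes, against 2.33% of the same 4034 genes. The Snord genes had a median length of 80.5 bases, the Snora genes of 132 bases and the Scarna genes of 140 bases, with a full range of 64 to 414 bases. Of the 123 genes, 90 lay in a protein-coding host gene, 26 in a noncoding host gene and 7 in none.

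The deposited values were RPKM, reads per kilobase of gene and 1000000 reads of the library. Because these values move in steps of 1 read, the reads behind them could be recovered, and all 477 member values above 0 came out as whole numbers of reads to within 0.01 read. The libraries held between 17505798 and 27983585 reads in genes, and the mitochondrial share of reads ranged from 11.6 to 16.5%. For a gene of 100 bases, 3 reads, taken as the floor of detection, correspond to between 1.07 and 1.71 RPKM, and this floor covers counting error only. As a check of the cells, Pdpn, an early osteocyte marker, stood between 53.1 and 171 RPKM and Col1a1, the type I collagen chain of bone-forming cells, between 259 and 430 RPKM. The late osteocyte marker Dmp1 was between 0.376 and 1.16 RPKM, and Sost and Fgf23 were at or under 0.0544 RPKM. The defining markers of adipocytes (Adipoq, Plin1), leukocytes (Ptprc) and endothelium (Pecam1, Cdh5) did not exceed 0.101 RPKM in any library. The other leukocyte marker listed, Cd68, did reach at least 0.5 RPKM in at least 2 libraries. Its log2 fold change with PTH was -0.006. Col2a1, a cartilage collagen, was at 0.625 and 0.577 RPKM with vehicle and at 1.71 and 1.54 RPKM with PTH (log2 fold change 1.30, limma adjusted p = 0.0147), and Acan, the other chondrocyte marker, did not exceed 0.0189 RPKM. Of the 7 osteocyte markers listed, which also held Mepe, Phex and Pth1r, 4 were tested. Among these, Pdpn rose with PTH (log2 fold change 1.44, limma adjusted p = 0.0147). At an unadjusted p below 0.05 (limma), 2 of the 4 were higher with PTH and 1 was lower, against 6.42% and 6.89% of all genes. Of the 5 osteoblast markers, Bglap (osteocalcin) rose (1.58, limma adjusted p = 0.0283) and Sp7 (osterix) fell (-1.97, limma adjusted p = 0.00189). The part of other cells or of a changed cell state in the results was not tested.

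Of the 123 RNAs, 42 were listed at 0 in all 6 libraries, 81 had at least 1 read, and 80 passed the filter on low values (at least 0.5 RPKM in at least 2 libraries). The remaining RNA, Snord45c, had 1 read in all. A mean of at least 50 reads was reached by 44 RNAs: 22 Snord, 15 Snora and 7 Scarna. The spread between replicates is described in these 44.

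The reads were concentrated in few RNAs. Scarna10 (ENSMUSG00000089617), a scaRNA that lies over an exon of the condensin gene Ncapd2, held 259518 reads in the 6 libraries, which was between 31.6 and 49.0% of all snoRNA and scaRNA reads of a library. Its level was 2462.5 and 5921 RPKM with vehicle, 7187 and 7507 RPKM with PTH, and 8349 and 5995 RPKM with YKL-05-093. It was followed by Snord17, from an intron of Snx5, and Snora74a, at 49473 and 43419 reads in all. The 10 RNAs with the most reads (Scarna10, Snord17, Snora74a, Snord15a, Scarna6, Scarna2, Snord13, Snora78, Snora24 and Snora68) held between 78.0 and 86.8% of the reads of the group. Scarna2 and Snord13 lay in no host gene, nor did Snord118 (U8), which is needed for the maturation of the large-subunit ribosomal RNAs and was measured at between 424 and 713 RPKM.

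The 42 RNAs listed at 0 were mostly those that the annotation covers with another exon. An exon of another gene on the same strand covered the whole of 49 RNAs, and 32 of these (65.3%) were at 0. With no such exon, 9 of 59 RNAs (15.3%) were at 0. Snord32a, Snord33, Snord34 and Snord35a all come from the ribosomal protein gene Rpl13a, and only Snord35a had reads. Snord33 lay wholly under another exon. No such exon covered Snord32a or Snord34, neither had a near-identical copy among annotated snoRNAs and scaRNAs, and the reason for their listed 0 was not tested. Snora73a and Snora73b, the paired copies of U17 within Rcc1, were also at 0, as were the brain-type Snord116l1 and Snord116l2, each of which has 69 near-identical copies in the annotation. Of these, only Snora73a lay partly under another exon. How reads that fit more than 1 gene were counted is not given in the sources used here. A listed 0 in an RNA under another exon or with near-identical copies thus cannot be told apart from reads assigned elsewhere or left out. The exons were taken from a later annotation (GENCODE M21) than the one used for counting.

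The replicates of a condition differed in these RNAs by more than they did in protein-coding genes, and the vehicle libraries differed by RNA length. Among the 44 RNAs with a mean of at least 50 reads, the median difference between replicates, without regard to sign, was 0.77 on the log2 scale with vehicle, 0.14 with PTH and 0.57 with YKL-05-093. Across 10766 protein-coding genes of the same depth it was 0.31, 0.09 and 0.08. Across 167 other genes under 300 bases of that depth it was 0.43, 0.16 and 0.44. With PTH the spread of the RNAs was thus no larger than that of other short genes. With vehicle, 15 of the 44 RNAs differed more than 2-fold between the replicates, whereas none did with PTH and 2 did with YKL-05-093.

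With vehicle, the sign of the difference followed length. All 15 RNAs under 100 bases were higher in replicate 1, with a median of 2.47-fold. All 5 RNAs of 200 bases or more were higher in replicate 2, with a median of 1.71-fold, and the 24 RNAs between these limits were split, with 16 higher in replicate 2. Snord85, a 73-base C/D RNA, was at 53.2 RPKM in vehicle replicate 1 and 14.4 RPKM in replicate 2, the largest ratio of the 44 (3.69-fold). Scarna10, at 325 bases, had the largest ratio in the other direction, 2.40-fold higher in replicate 2. Over the 44 RNAs, the log2 ratio of vehicle replicate 2 to replicate 1 had a Pearson correlation of 0.82 with log2 length and a Spearman correlation of 0.83. The same correlation was -0.52 (Spearman -0.56) for PTH and -0.21 (Spearman -0.34) for YKL-05-093. These are descriptions of 1 pair of libraries each; the points share their libraries, and length goes together with class, since the short RNAs are box C/D.

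**Figure D1:**
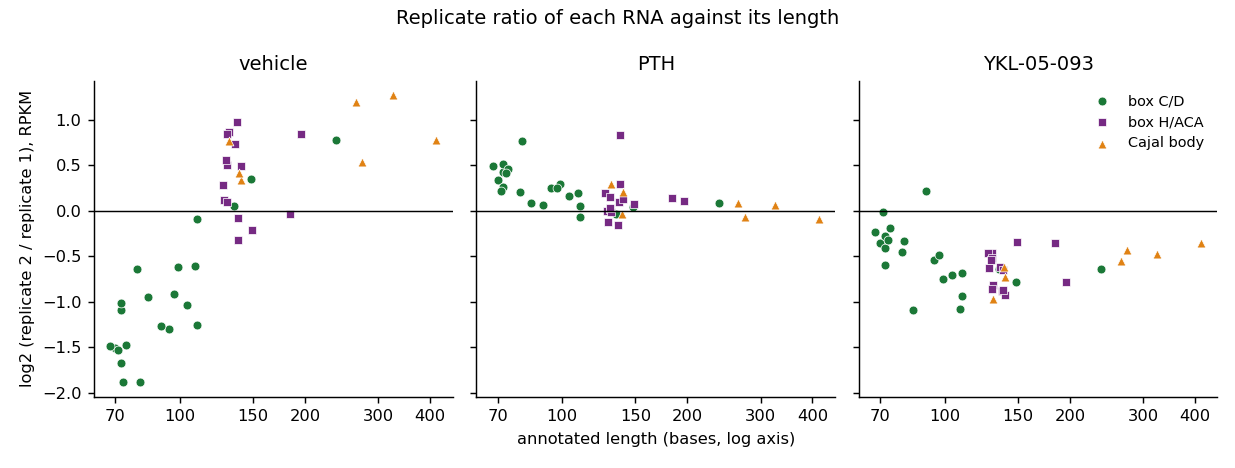
Log2 ratio of replicate 2 to replicate 1 in RPKM (vertical axis) against annotated length in bases (horizontal log axis) for the 44 RNAs with a mean of at least 50 reads, in 1 panel per condition and with 1 symbol per class. With vehicle the points climb from between -1.88 and -0.62 for RNAs under 100 bases to between 0.54 and 1.27 for those of 200 bases or more. With PTH all lie between -0.16 and 0.83, and with YKL-05-093 all but 1 lie below 0.

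With PTH the replicates were close: no ratio passed 2-fold, and the largest were those of Snora47 (38.8 and 68.9 RPKM), Snord69 (55.7 and 94.9 RPKM) and Snord49a (232 and 330 RPKM). With YKL-05-093, 43 of the 44 RNAs were lower in replicate 2, by a median of 1.48-fold, with Snord35a as the exception (44.9 and 52.0 RPKM). The largest ratios there were those of Snord11 (2.13-fold), Snord23 (2.10-fold) and Scarna8 (1.96-fold).

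The sums, in reads per 1000000 reads of the library (RPM), showed the same pattern. RNAs under 100 bases summed to 202 and 89.5 RPM with vehicle, 265 and 331 with PTH, and 190.5 and 146 with YKL-05-093. RNAs of 200 bases or more summed to 1259 and 2741 RPM with vehicle, 3314 and 3442 with PTH, and 3840 and 2721 with YKL-05-093. Thus the library with the lowest sum of long RNAs (vehicle replicate 1) was not the one with the lowest sum of short RNAs (vehicle replicate 2), and the PTH libraries were high in both. Of the 44 RNAs, 16 had their lowest level in vehicle replicate 1, all of them of 100 bases or more. A further 19 had it in vehicle replicate 2, of which 13 were under 100 bases, and 9 had it in YKL-05-093 replicate 2. None had it in a PTH library.

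**Figure D2:**
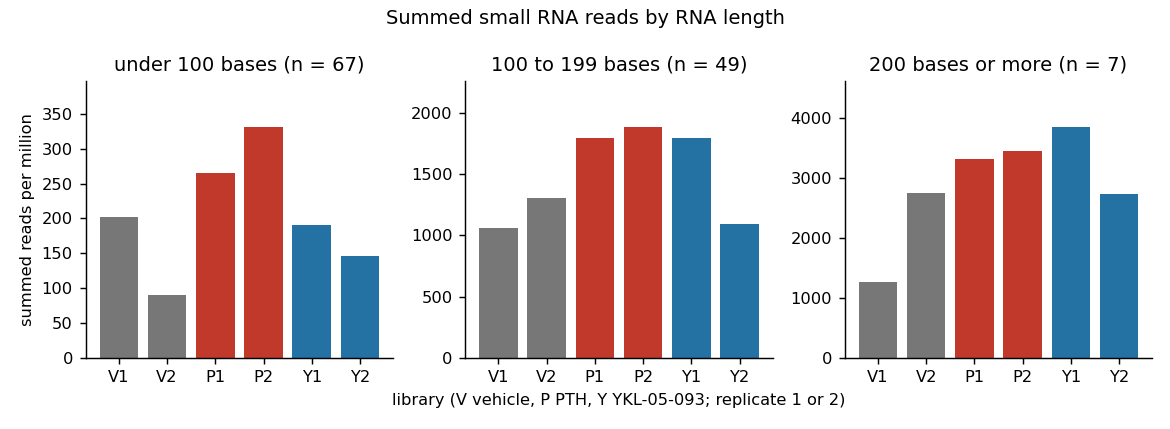
Summed RPM (vertical axes, starting at 0) of the snoRNAs and scaRNAs in each of the 6 libraries (V vehicle, P PTH, Y YKL-05-093), in panels for RNAs under 100 bases, from 100 to under 200 bases and of 200 bases or more. Vehicle replicate 2 is lowest for the shortest RNAs (89.5) and vehicle replicate 1 is lowest for the longest (1259).

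PTH was compared with vehicle to ask which of these RNAs the hormone changed within 4 h. All members together summed to 2522 and 4134 RPM with vehicle and to 5370 and 5656 with PTH, 1.66-fold higher on average. Vehicle replicate 1 decided much of the size of this total, since the PTH mean was 2.19-fold above that library and 1.33-fold above vehicle replicate 2. The parts differed: for the 76 Snord genes the PTH mean was 1.64-fold above vehicle replicate 1 and 1.67-fold above replicate 2. For RNAs under 100 bases it was 1.47-fold and 3.33-fold above them. In bulk RNA, more copies per cell and more cells that make an RNA cannot be told apart. The log2 fold change of the 80 RNAs that passed the filter had a median of 0.87, against -0.03 for all 14261 genes tested and 0.40 for 1049 other genes under 300 bases.

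Snora62 and Snora28, both H/ACA RNAs, were the 2 RNAs that passed the test (limma with Benjamini-Hochberg adjustment over all genes, adjusted p below 0.05 and over 2-fold), and none passed it in the lower direction. Over all genes tested, 1.09% passed in the higher and 0.813% in the lower direction. Snora62 (ENSMUSG00000064925), from an intron of the laminin receptor and ribosomal protein gene Rpsa, was at 45.5 and 39.4 RPKM with vehicle and at 89.1 and 93.5 RPKM with PTH. Its log2 fold change was 1.11 ± 0.17 (SE, n = 2 libraries per group; limma adjusted p = 0.0222). Both PTH libraries stood well above both vehicle libraries, and the vehicle replicates differed by only 1.16-fold. Snora28 (ENSMUSG00000064493), which lies within an exon of the translation initiation factor gene Eif5 in the annotation used here, so that its reads and those of Eif5 messenger RNA cannot be told apart, was at 139 and 169 RPKM with vehicle and 311 and 355 RPKM with PTH. Its log2 fold change was 1.12 ± 0.18 (SE; limma adjusted p = 0.0238). At an adjusted p below 0.05 with no limit on the fold, 3 RNAs were higher, against 1.26% of all genes. The added RNA, the H/ACA RNA Snora30, was below the fold limit, at 54.9 and 58.5 RPKM with vehicle and 107 and 110 RPKM with PTH (log2 fold change 0.94 ± 0.16, limma adjusted p = 0.0326).

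These 3 RNAs were between 127 and 149 bases long, in the range of lengths where the vehicle replicates agreed best. Among the 44 RNAs with at least 50 reads on average, the largest fold changes belonged to shorter RNAs whose vehicle replicates lay far apart, and these did not pass. Snord49b, from the noncoding host 2410006H16Rik, was at 354 and 111 RPKM with vehicle and 542 and 727 RPKM with PTH, a log2 fold change of 1.66 ± 0.48 (SE) with a limma adjusted p of 0.171. Its neighbours from the same host, Snord49a and Snord65, had log2 fold changes of 1.38 and 1.60 (limma adjusted p = 0.124 and 0.0628). For Scarna10 the log2 fold change was 0.94 ± 0.39 (SE; limma adjusted p = 0.354), and for Snord17, at 817 and 1397 RPKM with vehicle against 1852 and 1964 RPKM with PTH, it was 0.84 ± 0.27 (SE; limma adjusted p = 0.225).

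The PTH libraries lay above both vehicle libraries in 63 of the 80 RNAs and below both in 1, against 19.1% and 24% of all genes tested. At an unadjusted p below 0.05 (limma), 47 of the 80 were higher and none lower, against 6.42% and 6.89% of all genes. Among the 44 RNAs with at least 50 reads on average, the log2 fold change was above 0 in all 44, against 44.2% of all genes of that depth, with a median of 1.18 in those under 100 bases, 0.72 in those of 100 to under 200 bases and 0.84 in those of 200 bases or more. The RNAs share the same 4 libraries and are not independent of each other. An exact permutation test of a single RNA with 2 libraries against 2 cannot give a p below 0.333.

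Which RNAs passed depended on which vehicle library was used. With 1 library left out, its group holds a single library, which is assumed to vary like the remaining pair, so that the error comes from that pair alone. Without vehicle replicate 1, 24 RNAs passed in the higher direction, of which 19 were under 100 bases (2.80% of all genes passed, both directions together). Without vehicle replicate 2, 13 passed, of which 2 were under 100 bases, and they then included Scarna10 (log2 fold change 1.58, limma adjusted p = 0.0065), Scarna6, Snord17 and Snora74a (4.69% of all genes). Snora62 passed in both cases, with log2 fold changes of 1.21 and 1.00. Snora28 passed without vehicle replicate 2 and fell under the fold limit without vehicle replicate 1 (0.97). With either PTH library left out, no RNA passed (0.0983% of all genes), and the limma adjusted p of Snora62 was 0.425 and 0.579. With each library centred on the median of genes under 300 bases, Snora62 and Snora28 both fell under the fold limit (log2 fold changes 0.86 and 0.87, limma adjusted p = 0.033 and 0.0268). The 4 RNAs that passed were then Snord49a, Snord49b, Snord65 and Snord90. Snord90 had only 16 reads in all 6 libraries and a mean of 0 RPKM with vehicle. Its fold change was thus set largely by the 0.1 RPKM added to every value. It was also among those that passed with either vehicle library left out.

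**Figure D3:**
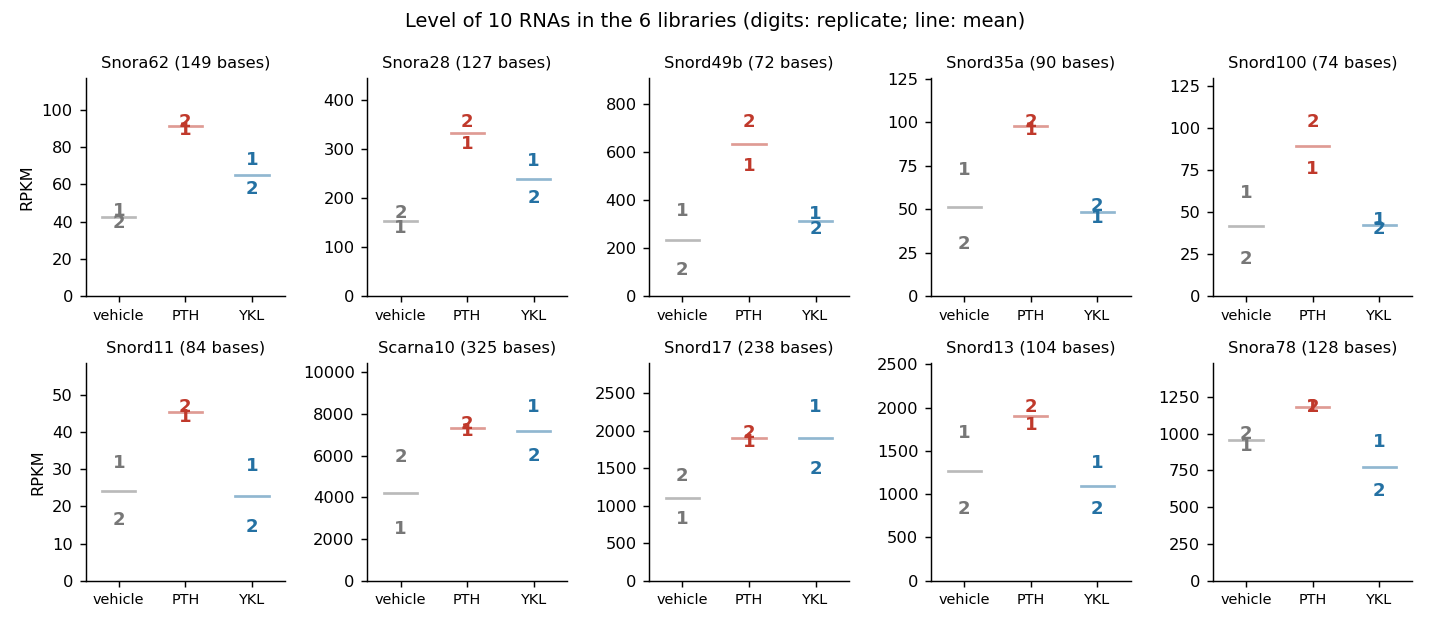
RPKM (vertical axes, starting at 0) of 10 RNAs in the 6 libraries by condition (YKL stands for YKL-05-093): the 6 RNAs that passed the test in a comparison, in the upper row and first in the lower row, and Scarna10, Snord17, Snord13 and Snora78. Digits are replicate numbers and lines are means. For Snora62 and Snora28 the vehicle replicates lie together below PTH, whereas for Snord49b, Snord35a, Snord100 and Snord11 vehicle replicate 2 lies far below replicate 1, and for Scarna10 and Snord17 the order is the other way round.

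YKL-05-093 was compared with vehicle to ask which of these RNAs the kinase inhibitor changed, with the same vehicle libraries as before. None of the 80 RNAs passed the test in either direction by limma on log2 RPKM or by limma-voom on the recovered reads, against 0.393% of all genes in the higher and 0.274% in the lower direction. At an unadjusted p below 0.05 (limma), 7 RNAs were higher and none lower, against 3.9% and 4.77% of all genes. The sums were 5827 and 3961 RPM, so that YKL-05-093 replicate 2 lay below vehicle replicate 2 (4134). The median log2 fold change was 0.24, against -0.04 for all genes tested and 0.10 for 1043 other genes under 300 bases, and it was -0.00014 without YKL-05-093 replicate 1 and 0.44 without replicate 2.

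Snora23, an H/ACA RNA from an intron of the import receptor gene Ipo7, had the lowest adjusted p. It was at 65.6 and 64.0 RPKM with vehicle, 96.4 and 106 RPKM with PTH, and 141 and 110 RPKM with YKL-05-093, so that the 3 conditions did not overlap. Its log2 fold change with the inhibitor was 0.94 ± 0.18 (SE; limma adjusted p = 0.0993). Snora62 and Snora28 lay between their vehicle and PTH levels, at 72.9 and 57.3 RPKM and at 276 and 200 RPKM, with log2 fold changes against vehicle of 0.61 and 0.62 (limma adjusted p = 0.395 and 0.426). Without vehicle replicate 2, Scarna10 and Scarna6 passed (log2 fold changes 1.52 and 1.44, limma adjusted p = 0.0399 and 0.0479), with the error taken from the YKL-05-093 pair alone and with 2.25% of all genes passing. Without vehicle replicate 1 the same values were 0.26 and 0.24.

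PTH was set directly against YKL-05-093, a comparison that does not use the vehicle libraries but shares its PTH libraries with the first comparison. In it 4 RNAs passed as higher with PTH and none as lower, against 0.737% and 0.47% of all genes, and the 4 were box C/D RNAs of 72 to 90 bases. Snord49b was at 342 and 281 RPKM with YKL-05-093 against the 542 and 727 RPKM with PTH given above, a log2 difference of 1.02 ± 0.12 (SE, n = 2 libraries per group; limma adjusted p = 2.33e-05). Snord35a, from Rpl13a, was at 95.7 and 100.1 RPKM with PTH and at 44.9 and 52.0 RPKM with YKL-05-093 (1.02 ± 0.15, limma adjusted p = 0.000219). Snord100, which lies wholly under an exon of the ribosomal protein gene Rps12 and cannot be told apart from its messenger RNA in reads within that exon, was at 75.4 and 103 RPKM with PTH and at 45.2 and 39.6 RPKM with YKL-05-093 (1.06 ± 0.19, limma adjusted p = 0.00113). Snord11 comes from Nop58, itself a gene for a core box C/D protein. It was at 44.1 and 46.7 RPKM with PTH and at 30.9 and 14.5 RPKM with YKL-05-093 (1.10 ± 0.29, limma adjusted p = 0.0209).

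All 4 RNAs were separated between the conditions, but with only 25 to 984 reads per library and with fold changes just past the limit of 2-fold. Vehicle replicate 1 lay between the YKL-05-093 and PTH levels for all 4. At an adjusted p below 0.05 with no limit on the fold, 25 of the 80 RNAs were higher with PTH and none lower, against 4.85% and 5.11% of all genes. Of the 25, 19 were Snord, 5 Snora and 1 Scarna. At an unadjusted p below 0.05 (limma), 43 were higher and 2 lower, against 11.4% and 10.8% of all genes. Snord13 (U13), a guide for the acetylation of the small-subunit RNA, was among them, at 1803 and 2010 RPKM with PTH and 1356 and 834 RPKM with YKL-05-093 (0.84 ± 0.14, limma adjusted p = 0.00083). Snora78 was too, at 1183 and 1179 RPKM with PTH and 940 and 610 RPKM with YKL-05-093 (0.64 ± 0.13, limma adjusted p = 0.00335). Snora62 and Snora28 were also among the 25, with log2 differences of 0.50 each (limma adjusted p = 0.0203 and 0.011).

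The difference between PTH and YKL-05-093 was graded by length. Its median was 0.91 in the 15 RNAs under 100 bases, 0.51 in the 24 RNAs of 100 to under 200 bases and 0.09 in the 5 RNAs of 200 bases or more. Over the 44 RNAs its Pearson correlation with log2 length was -0.80 (Spearman -0.83), a description over RNAs that share the 4 libraries. Scarna10, Snord17 and Snora74a were alike in both conditions on average (log2 differences of 0.05, 0.04 and 0.05, each with an SE between 0.14 and 0.16).

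Without YKL-05-093 replicate 1, 9 RNAs passed (1.09% of all genes), and without replicate 2 only Snord35a did (0.779% of all genes), with the error taken from the PTH pair alone. Without either PTH library, with the error taken from the YKL-05-093 pair, no gene of any kind passed. In 1 fit over all 6 libraries, where the vehicle spread enters the error, none of the 4 passed (limma adjusted p between 0.407 and 0.611).

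**Figure D4:**
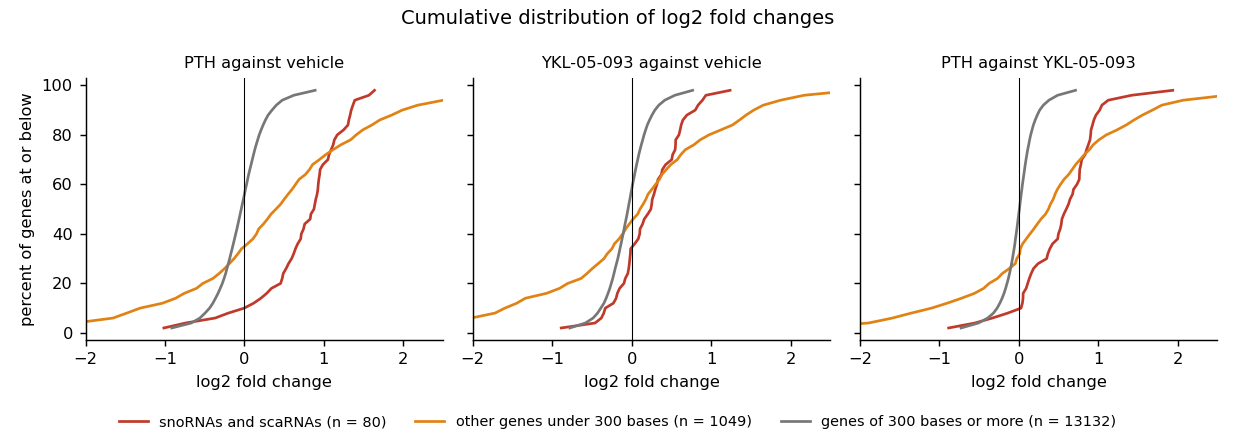
Percent of genes (vertical axis) at or below each log2 fold change (horizontal axis, shown from -2 to 2.5) for the 80 snoRNAs and scaRNAs tested, other genes under 300 bases and genes of 300 bases or more, in 1 panel per comparison. The snoRNA and scaRNA curve lies to the right of zero at its median, at 0.87, 0.24 and 0.60, and the other short genes have medians of 0.40, 0.10 and 0.37.

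Among the 7 scaRNAs with at least 50 reads on average, all were higher in vehicle replicate 2 than in replicate 1, from 1.27-fold (Scarna3a) to 2.40-fold (Scarna10), and all were lower in YKL-05-093 replicate 2 than in replicate 1, from 1.28-fold (Scarna2) to 1.96-fold (Scarna8). Scarna6, from an intron of the autophagy gene Atg16l1, was at 325 and 745 RPKM with vehicle, 911 and 965 RPKM with PTH, and 1065 and 728 RPKM with YKL-05-093. Scarna2 was at 297 and 507 RPKM with vehicle, 549 and 517 RPKM with PTH, and 541 and 422 RPKM with YKL-05-093. The order of the conditions thus could not be read in either, since the vehicle replicates lay as far apart as the condition means. Scarna3a alone passed an adjusted p of 0.05 in any comparison: it was at 430 and 496 RPKM with PTH against 400 and 242 RPKM with YKL-05-093, a log2 difference of 0.57 ± 0.15 (SE; limma adjusted p = 0.0238), under the fold limit. A miRNA gene, Mir1843b, overlaps it in the annotation. Scarna13 and Scarna3b had PTH libraries within or close to the range of the vehicle libraries (log2 fold changes of 0.13 and 0.20, limma adjusted p = 0.849 and 0.753), and Scarna8 had a log2 fold change of 0.93 (limma adjusted p = 0.212).

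The host genes did not show the shift of the RNAs within them. Of the 44 RNAs, 35 lay in 32 host genes that were themselves tested. With PTH against vehicle, the median log2 fold change was 0.93 for these RNAs and 0.12 for the hosts, and all 35 RNAs had a larger value than their host. None of the 32 hosts passed the test, against 1.09% of all genes in the higher and 0.813% in the lower direction. An unadjusted p below 0.05 (limma) was found in 4 hosts (1 higher and 3 lower, against 6.42% and 6.89% of all genes). Rpsa, the host of Snora62, was at 94.4 and 133 RPKM with vehicle and 138 and 130 RPKM with PTH (log2 fold change 0.26, limma adjusted p = 0.698). Eif5, the host of Snora28, had a log2 fold change of -0.25 (limma adjusted p = 0.675). The largest host value, 0.71 (limma adjusted p = 0.259), was that of 2410006H16Rik, whose 3 RNAs also had the largest values, at 1.38 to 1.66. Over the 35 pairs the Pearson correlation was 0.23, a description over pairs that share their libraries.

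**Figure D5:**
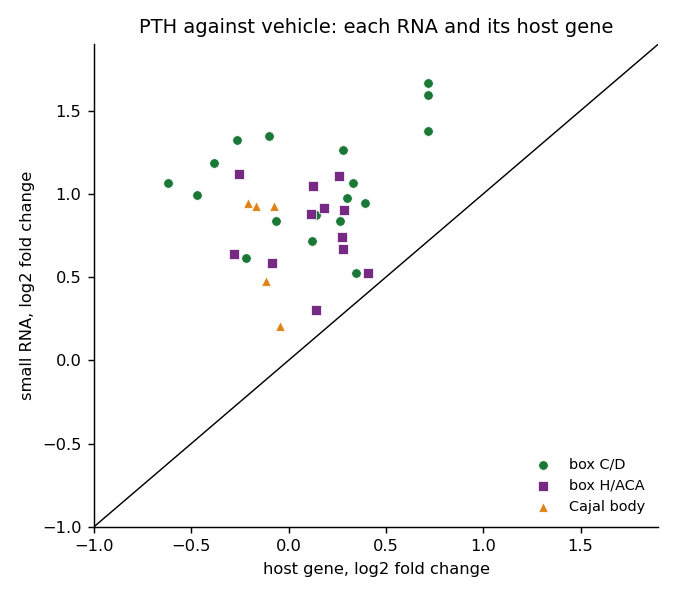
Log2 fold change with PTH against vehicle of 35 snoRNAs and scaRNAs (vertical axis) and of their host genes (horizontal axis), with the line of equal values. All points lie above the line, with a median of 0.93 for the RNAs and 0.12 for the hosts.

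Between PTH and YKL-05-093, 1 of the 32 hosts passed: Snhg9, the noncoding host of Snora78. Over all genes tested, 0.737% passed as higher with PTH and 0.47% as lower. Snhg9 was at 23.3 and 24.9 RPKM with PTH and at 17.4 and 6.66 RPKM with YKL-05-093 (log2 difference 1.15 ± 0.32, SE; limma adjusted p = 0.0281). Snhg9 and its Snora78 were thus lowest in the same library, YKL-05-093 replicate 2. Snhg9 was also the 1 gene to pass among 8 tested noncoding snoRNA hosts, against the same shares of all genes, and none passed in the comparisons with vehicle. Gas5, the host of several C/D RNAs, was between 37.7 and 59.7 RPKM, and its log2 fold change with PTH was 0.22 (limma adjusted p = 0.726). That of Snhg1 was 0.27 (limma adjusted p = 0.66).

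The proteins that bind and process these RNAs did not pass the test in any comparison (0 of 12 box C/D proteins and assembly factors, 0 of 6 H/ACA proteins, 0 of 8 genes of Cajal body handling and 0 of 5 of 3′ end processing, by limma). Over all genes tested, 1.09% passed as higher and 0.813% as lower with PTH, and 0.393% and 0.274% with YKL-05-093. Between PTH and YKL-05-093 the shares were 0.737% and 0.47%. At such shares, lists this small can hold no passing gene. The median log2 fold changes of the 4 lists with PTH were -0.16, -0.40, -0.17 and -0.19. Dkc1, which encodes the pseudouridine synthase dyskerin, came closest, at 26.5 and 21.8 RPKM with vehicle, 13.8 and 13.1 RPKM with PTH, and 15.2 and 15.7 RPKM with YKL-05-093 (log2 fold change with PTH -0.84 ± 0.17, SE; limma adjusted p = 0.064). The H/ACA core genes Nhp2 and Nop10 had log2 fold changes of -0.21 and -0.05 with PTH (limma adjusted p = 0.792 and 0.965). Nolc1, a nucleolar and Cajal body phosphoprotein, was at 33.5 and 32.2 RPKM with vehicle and 21.3 and 21.4 RPKM with PTH (-0.62 ± 0.16, limma adjusted p = 0.126). Tcof1, a nucleolar partner of RNA polymerase I, had a log2 fold change of -0.29 (limma adjusted p = 0.678). Those of Exosc10, the nuclear exosome nuclease, and Skiv2l2, its helicase, were -0.10 and -0.19 (limma adjusted p = 0.856 and 0.741). The C/D core genes Nop56 and Nop58, which are also hosts of Snord110 and Snord11, had log2 fold changes of -0.38 and -0.47 with PTH (limma adjusted p = 0.359 and 0.278), whereas Snord110 and Snord11 had 1.18 and 0.99 (limma adjusted p = 0.316 and 0.24). At an unadjusted p below 0.05 (limma), 9 of these 31 genes were lower with PTH and none higher, against 6.89% and 6.42% of all genes. With YKL-05-093, 8 were lower and none higher, against 4.77% and 3.9% of all genes.

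Other small noncoding RNAs also differed between the vehicle replicates, and RNAs of like length did not always differ alike. Rn7sk, the 331-base RNA of the transcription elongation control complex, was at 43722 and 80410 RPKM with vehicle, and Rpph1, the 319-base RNA of ribonuclease P, at 11500 and 33794 RPKM. Both were thus higher in vehicle replicate 2, by 1.84-fold and 2.94-fold. The Y RNAs Rny3 (102 bases) and Rny1 (112 bases) were higher in vehicle replicate 1, by 2.20-fold and 1.73-fold. Rprl2 and Rprl3, both of 290 bases, were 2.65-fold and 2.43-fold higher in replicate 2, whereas Rmrp, at 271 bases, differed by only 1.09-fold. The minor spliceosomal RNAs Rnu12 (151 bases) and Rnu11 (134 bases) were 1.84-fold and 1.23-fold higher in replicate 1, although most snoRNAs and scaRNAs of 100 to under 200 bases were higher in replicate 2. Vaultrc5 (143 bases) differed by 1.05-fold. Of the list of 15 other small RNAs, 11 were tested and none passed in any comparison by limma. With PTH against vehicle their median log2 fold change was 0.91, and 8 were higher and none lower at an unadjusted p below 0.05, against the same shares of 6.42% and 6.89%. Terc, the telomerase RNA, was listed at 0. In the annotation classes, 14 of 373 snRNA genes, 3 of 56 misc_RNA genes, 1 of 178 other snoRNA genes and 0 of 230 miRNA genes passed as higher with PTH and none as lower. Over all genes tested, 1.09% passed as higher and 0.813% as lower. The median was 0.84 for snRNA, 0.52 for other snoRNA, 0.43 for misc_RNA and -0.11 for miRNA genes. As a share of all reads, genes under 300 bases took up 1.54 and 1.66% with vehicle, 2.40 and 2.71% with PTH, and 2.64 and 1.51% with YKL-05-093. The part of RNA length in the differences between conditions was not tested.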

How the data were processed

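RNA from 6 Ocy454 libraries was aligned by the authors with STAR to mm10 (GRCm38) and counted with HTSeq on Ensembl genes. The deposited values are RPKM, which the authors computed from those counts; the sources used here do not say whether counting used strand. Reads and library totals were recovered from the RPKM steps, with a gene length 1 base per exon shorter than annotated (GENCODE M21, which held 95.99% of the identifiers). The test was that of limma (version 3.58.1, R 4.3.3), applied to log2(RPKM + 0.1) with a variance trend on mean log2 reads. Genes entered it when 2 of the 6 libraries or more reached 0.5 RPKM. Each comparison was fitted on its own 4 libraries, with Benjamini-Hochberg adjustment over all genes; called genes had an adjusted p below 0.05 and a change over 2-fold. A fold change on this scale understates the change of low genes. A count test, as the study used, was not the main test because the values are not counts. Members and lists were chosen with earlier results of these data known. Named were the called RNAs, the 10 with the most reads, the Scarna genes with at least 50 reads on average, the 3 largest replicate ratios per condition and, in each list, called genes or the 2 with the most reads; Snora30, Snora23, Snord65, Snord110, Snord118, Dkc1, Rny1, Rny3, Rmrp, the RNAs at 0 and the host genes were added after their values were seen. On simulated counts for PTH against vehicle (13942 genes), 91.9% of genes changed 2.5-fold and 99.0% of those changed 4-fold were called. The simulation gave every gene the same spread, which was not taken from the vehicle replicates, and changed only genes above a minimum of reads. These shares therefore do not apply to RNAs whose vehicle replicates lay far apart. The labels do not say whether the replicate numbers pair the samples, and the main test used no pairing. Figures were drawn with matplotlib 3.10.9. The sequence of 1 called RNA is not reported here.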

Additional observations from a re-analysis of the deposited data

How the results depend on the processing

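With PTH against vehicle, the 2 called RNAs became 0 with no filter on low values, 4 in 1 fit of all 6 libraries, 1 with values centred on all tested genes, 4 with values centred on genes under 300 bases (none of them Snora62 or Snora28), and between 0 and 24 with 1 library left out. With YKL-05-093 against vehicle, between 0 and 2 were called with 1 library left out. With PTH against YKL-05-093, the 4 called RNAs became 0 with no filter, 0 in 1 fit of all 6 libraries, 1 and 0 with the 2 centrings, 25 with no limit on the fold, and between 0 and 9 with 1 library left out. Limma-voom on recovered reads called 3, 0 and 4 RNAs. The share of all genes called is not given beside these counts, which show only how the list of RNAs changed. With PTH against vehicle, Snord90, at 16 reads in all, was among those called in the joint fit and with centring on genes under 300 bases. The cause of these differences was not tested. More genes were tested without a filter, and the joint fit held more samples. The summed RPKM, in which each RNA is scaled by its length, gave log2 ratios of 0.73, 0.44 and 0.29 in the 3 comparisons, with ranges of 0.55 to 0.94, 0.12 to 0.70 and 0.030 to 0.61 when 1 library was left out. Centring on genes under 300 bases lowered the median of the RNAs with PTH against vehicle from 0.87 to 0.63, and the called RNAs kept their direction, in the comparison that called them, under every alternative run. The labels do not say that a replicate number marks a shared batch. Replicate differences correlated at -0.11, -0.18 and -0.06 between conditions over 11885 genes, which cannot settle whether the numbers pair the samples. A replicate block gave 16, 0 and 4 called RNAs (3.09%, 1.51% and 1.37% of all genes), and the crossed pairing, added after the data were seen, gave 16 and 0 in the comparisons with vehicle (3.16% and 1.63% of all genes). Of the 81 detected RNAs, 14 had fewer than 10 reads on average.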

Other observations

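Genes annotated as snoRNA or scaRNA outside the rule numbered 1402, of which 349 had reads. The 332 such snoRNA genes with reads summed to 2553 and 3221 RPM (reads per 1000000 reads of the library) with vehicle, 4212 and 4273 with PTH, and 4494 and 2483 with YKL-05-093; as with the RNAs described above, both PTH libraries were above both vehicle libraries. A further 35 rows carry the same names in capitals, of which 4 had reads, between 25 and 59 in all per library. The miRNA genes went another way: they summed to 1700 and 1001 RPM with vehicle, 681 and 1292 with PTH, and 1398 and 1155 with YKL-05-093, so that no condition stood apart. The other small RNA genes under 100 bases, which include miRNA genes, summed to 1143 and 813 RPM with vehicle and 581 and 984 with PTH. The snoRNAs and scaRNAs of that length were higher in both PTH libraries than in both vehicle libraries. The reason for this difference was not tested.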
